A study of Mus musculus with 12 samples.

Results

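The 10 immediate early genes *Fos*, *Fosb*, *Fosl2*, *Jun*, *Junb*, *Jund*, *Egr1*, *Ier2*, *Atf3* and *Nr4a1* were found by symbol in a deposited table of 18180 genes, and all 10 had a row. They were followed in EGFR+ cells flow sorted from each of 3 mouse GBMs (T3, T4 and T5) as PDGFRA+, PDGFRA-, GAL1+ or GAL1- cells, which gave 12 bulk RNA-seq libraries and 3 per population. All tumors came from a Cre/Lox model in which human EGFR is overexpressed and *Cdkn2a* is lost, among other changes, started by a Cre lentivirus injected into the striatum of adult mice and sorted at end stage. The labels give the mice a mixed background of C57Bl/6J, 129S4, FVBN/J and Balb/cJ, to which the study's methods add SJL. The methods give young adult mice of both sexes in equal numbers for the study as a whole, and the age and sex of the mice bearing the 3 tumors and the Cre virus they received are not given in the sources used here. PDGFRA is the receptor tyrosine kinase of oligodendrocyte precursors, and GAL1 (Galectin-1, encoded by *Lgals1*) is a sugar-binding protein. The PDGFRA and GAL1 sorts split the same EGFR+ cells of a tumor along different markers, so that 1 kind of cell can enter a PDGFRA and a GAL1 population.

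Immediate early genes are transcribed within minutes of a stimulus, without new protein synthesis, when growth factor, calcium or stress signals reach factors such as SRF, its ELK partners and CREB on their promoters. FOS and JUN family proteins pair through leucine zippers to form AP-1, EGR1 is a zinc finger factor, ATF3 is a stress-responsive member of the ATF family, NR4A1 is an orphan nuclear receptor and IER2 is a small nuclear protein. The same genes are well known to be induced while tissue is cut up and digested, in neural and immune cells alike. The study describes a warm collagenase incubation before sorting. No library of undissociated tissue was analysed here, so expression in the tumor and induction during dissociation cannot be told apart.

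The sequences just upstream of the start site show how the promoters of members that moved in opposite directions differ in letters. RefSeq (GRCm38.p6) gave a promoter for 8 of the 10 members, and *Egr1* and *Ier2* had no entry in the table. The 120 bases before the start site are given for *Fos* (chr12:85473770-85473889, + strand) and *Jun* (chr4:95052223-95052342, - strand), which were lower in GAL1+ cells, and for *Junb* (chr8:84978749-84978868, - strand), *Atf3* (chr1:191183334-191183453, - strand) and *Nr4a1* (chr15:101266726-101266845, + strand), which were higher. Each is written 5′ to 3′ along its gene, and capitals mark TGACG (the core of the cAMP response element, read as CGTCA on the other strand), TGACATCA (an element the *Jun* promoter is known for, and searched for that reason) and TATAAA.
Fos: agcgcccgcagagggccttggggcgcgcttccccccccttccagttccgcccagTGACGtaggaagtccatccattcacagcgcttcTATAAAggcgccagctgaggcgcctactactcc
Jun: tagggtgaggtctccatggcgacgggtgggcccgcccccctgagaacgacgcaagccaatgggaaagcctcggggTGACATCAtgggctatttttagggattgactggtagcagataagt
Junb: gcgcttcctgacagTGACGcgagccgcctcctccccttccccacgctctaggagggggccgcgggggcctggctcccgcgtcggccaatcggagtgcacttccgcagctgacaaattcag
Atf3: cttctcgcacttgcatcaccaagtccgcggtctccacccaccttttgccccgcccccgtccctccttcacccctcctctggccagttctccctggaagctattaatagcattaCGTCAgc
Nr4a1: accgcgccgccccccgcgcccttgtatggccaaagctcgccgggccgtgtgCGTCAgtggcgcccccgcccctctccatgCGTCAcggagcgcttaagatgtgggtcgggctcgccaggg

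In the 250 bases upstream, searched on both strands, TGACG was found in 5 of 8 members (*Fos*, *Fosb*, *Junb*, *Atf3* and *Nr4a1*) and in 17.8% of all 32851 windows of this length. TGACG is part of the full element TGACGTCA, which was in 0 of 8 members and 1.55% of windows. TGACATCA was in *Jun* alone of the 8 members and in 2.93% of windows, and TATAAA was in *Fos* alone and in 12.4%. The AP-1 site TGANTCA was in 0 of 8 members and 6.75% of windows, and the SRF-binding CArG box was in 0 of 8 and 1.47%. *Fos*, which was lower in GAL1+ cells, shared TGACG with 4 members that were higher there. A match describes letters and is not a bound site, and letters missing from this window may lie farther away.

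The deposited unit was log2 CPM (read counts scaled by library size, on a log2 scale), and recovered depth was between 9851175 and 24117541 reads per library. The members were well covered, with 756.5 to 25804 reads each in every library, so that none came near the floor of 3 reads. The sort markers gave log2 fold changes of 1.60 for *Pdgfra* in PDGFRA+ over PDGFRA- cells, which did not pass the test (adjusted p = 0.249), and 1.29 for *Lgals1* in GAL1+ over GAL1- cells, which did (adjusted p = 0.000967). The libraries labelled as EGFR+ also held leukocyte RNA. The summed level of 12 pan-leukocyte genes, all measured, ran over the libraries from 98.1 to 252 CPM (GAL1- cells), 734 to 1753 (PDGFRA+), 793 to 3607 (PDGFRA-) and 3193 to 4642 (GAL1+), and none of the 12 was at or under the floor in all libraries of any population. The model overexpresses human EGFR, and the reads were aligned to the mouse genome. The mouse gene *Egfr* is therefore not a direct measure of the EGFR used for sorting. Whether reads of human EGFR were counted under the mouse gene was not tested. Mouse *Egfr* was lower in the GAL1+ libraries, at a log2 fold change of -2.10 over GAL1- cells (adjusted p = 0.000461). *Ptprc*, which encodes CD45, was higher there by 4.04 on the log2 scale (adjusted p = 4.77e-05). In bulk samples, fewer cells of a type and less RNA per cell cannot be told apart. PDGFRA- cells of T5 stood apart from the other PDGFRA- libraries, at 82.4 on the first principal component against -13.5 and -16.8, where GAL1+ libraries lay between 63.8 and 120.

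The members did not move as 1 block. Between GAL1+ and GAL1- cells 6 of them were higher in GAL1+ cells (*Atf3*, *Junb*, *Fosl2*, *Nr4a1*, *Jund* and *Fosb*), 3 were lower (*Egr1*, *Jun* and *Fos*), and *Ier2* did not pass the test. Of all genes 58.2% were called in this comparison, 28.9% higher and 29.3% lower. Between PDGFRA+ and PDGFRA- cells no member passed, where 0% of all genes did. The median log2 fold change of the 10 in GAL1+ over GAL1- cells was 0.66, against -0.03 over all genes. For each of the 10 the mean of PDGFRA+ cells lay between those of GAL1+ and GAL1- cells, and so did the mean of PDGFRA- cells with the exception of *Ier2*.

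**Figure D1:**
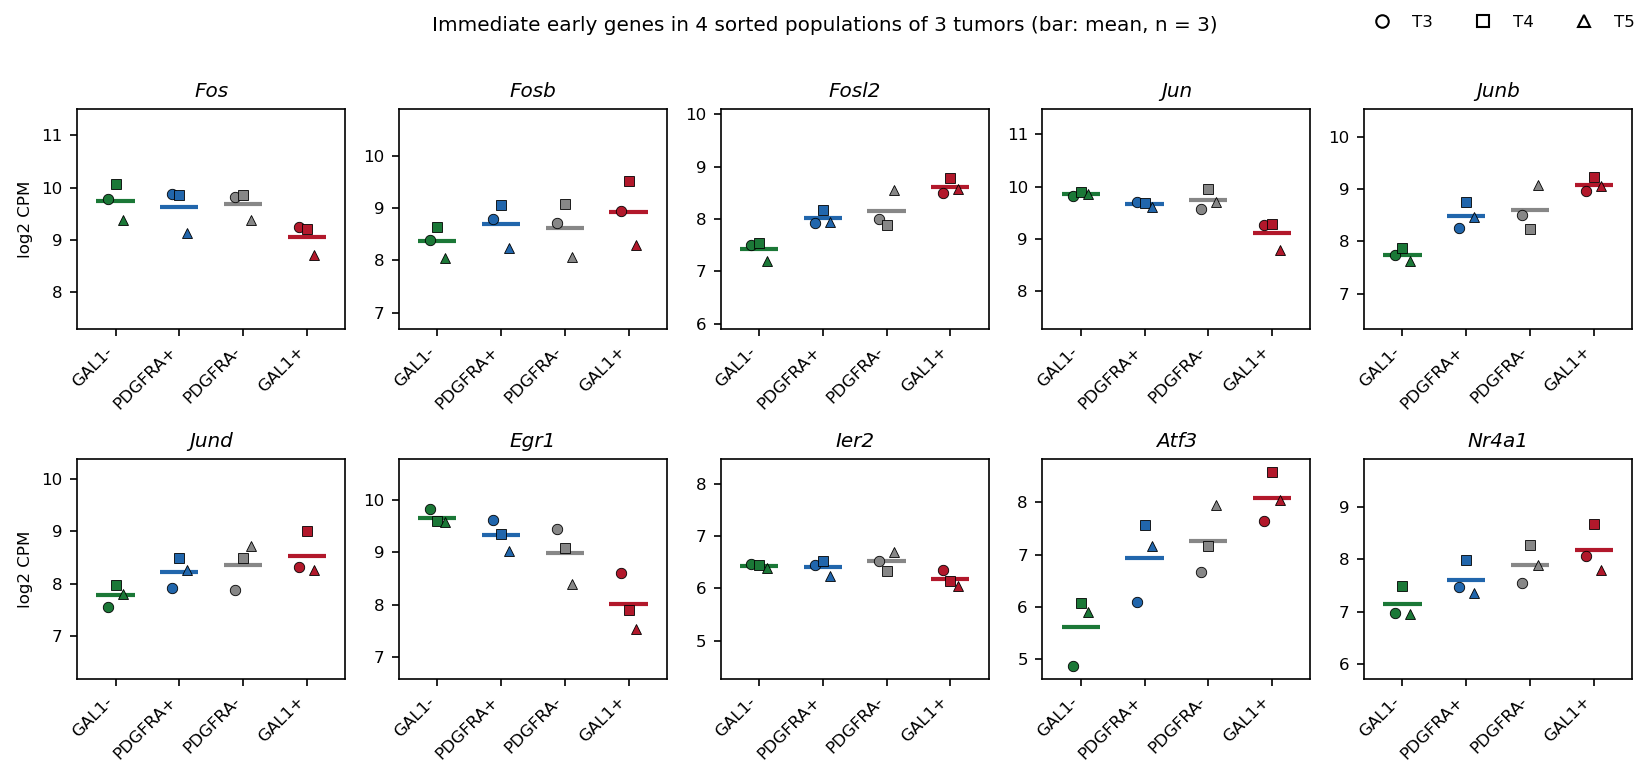
Log2 CPM (y axis, 4.2 log2 units tall in every panel and centred on each gene) of the 10 members in GAL1-, PDGFRA+, PDGFRA- and GAL1+ cells (x axis). Points are libraries, shaped by tumor, and bars are means of 3 libraries. *Egr1*, *Fos* and *Jun* are lowest in GAL1+ cells, and *Atf3*, *Junb* and *Fosl2* are highest there.

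Among the FOS family, which carries the AP-1 subunits that cannot pair with themselves, *Fos* itself had a log2 CPM of 9.79, 10.08 and 9.38 in GAL1- cells of T3, T4 and T5 and 9.25, 9.21 and 8.71 in GAL1+ cells. Every GAL1+ library lay under every GAL1- library. In no comparison was it counted how often ranges were apart over all genes. *Fos* was 1.62-fold lower in GAL1+ cells (log2 fold change -0.70, standard error 0.11, Benjamini-Hochberg adjusted p = 0.000618 with limma), lower in 3 of 3 tumors, and with it 9 of 10 members were called in this comparison, where 58.2% of all genes were called, 28.9% higher and 29.3% lower. *Fos* reached 9.88, 9.85 and 9.14 in PDGFRA+ cells and 9.82, 9.85 and 9.37 in PDGFRA- cells, within the range of GAL1- cells except for the T5 libraries. *Fosl2*, which encodes FRA-2, went the other way, with 7.51, 7.55 and 7.21 in GAL1- cells against 8.50, 8.78 and 8.57 in GAL1+ cells. The ranges were again apart, and the log2 fold change was 1.20 (standard error 0.18, adjusted p = 0.000426), or 2.30-fold. PDGFRA+ cells were intermediate for *Fosl2*, at 7.92, 8.18 and 7.94, and PDGFRA- cells were at 7.997, 7.89 and 8.55, with T5 as high as a GAL1+ library. *Fosb*, the paralog whose short form is the stable ΔFOSB of neurons, had the smallest called difference. It was at 8.40, 8.64 and 8.05 in GAL1- cells and 8.95, 9.52 and 8.29 in GAL1+ cells, so that the groups overlapped while GAL1+ was higher within each of the 3 tumors (log2 fold change 0.56, standard error 0.13, adjusted p = 0.00395). The *Fosb* call was lost without TMM scaling (0.26, adjusted p = 0.119), under quantile normalization (0.23, adjusted p = 0.174), without the tumor block (adjusted p = 0.209), without T3 (0.0538) and without T4 (0.0693). The table is by gene, so the *Fosb* forms were not separated.

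The JUN family, which can pair with itself or with FOS proteins, split as well. *Jun* was at 9.82, 9.90 and 9.86 in GAL1- cells, the tightest group for a member past a log2 CPM of 7, and at 9.27, 9.29 and 8.80 in GAL1+ cells. All GAL1+ libraries were lower, and the log2 fold change was -0.74 with a standard error of 0.14 (adjusted p = 0.00132). *Junb*, often described as a weaker activator that can oppose JUN, was at 7.75, 7.88 and 7.62 in GAL1- cells and 8.95, 9.22 and 9.06 in GAL1+ cells. It was 2.51-fold higher in GAL1+ cells (log2 fold change 1.33, standard error 0.20, adjusted p = 0.00042), with ranges apart. *Jund*, the JUN paralog that is expressed more steadily in resting cells, was at 7.56, 7.97 and 7.80 in GAL1- cells and at 8.32, 8.999 and 8.26 in GAL1+ cells. The *Jund* log2 fold change was 0.75 (standard error 0.17, adjusted p = 0.00394), with ranges apart, and without T4 its adjusted p was 0.050036. In PDGFRA+ and PDGFRA- cells the 3 JUN genes lay between the GAL1 populations on average.

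The members with the widest differences were *Atf3* and *Egr1*, in opposite directions. *Atf3* was at 4.87, 6.07 and 5.90 in GAL1- cells, 6.09, 7.56 and 7.18 in PDGFRA+ cells, 6.68, 7.17 and 7.95 in PDGFRA- cells and 7.65, 8.58 and 8.04 in GAL1+ cells. Every GAL1+ library was above every GAL1- library, the log2 fold change was 2.47 (standard error 0.23, adjusted p = 4.93e-05), and this made *Atf3* 5.55-fold higher. *Egr1* was at 9.82, 9.60 and 9.58 in GAL1- cells, 9.62, 9.36 and 9.04 in PDGFRA+ cells, 9.45, 9.08 and 8.40 in PDGFRA- cells and 8.61, 7.91 and 7.54 in GAL1+ cells. It was 3.13-fold lower in GAL1+ than in GAL1- cells (log2 fold change -1.65, standard error 0.17, adjusted p = 5.74e-05), in 3 of 3 tumors and with ranges apart.

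*Nr4a1* followed *Atf3* in direction, with 6.96, 7.50 and 6.95 in GAL1- cells and 8.06, 8.67 and 7.79 in GAL1+ cells (a log2 change of 1.04, standard error 0.13, adjusted p = 0.000131). All 3 GAL1+ libraries were above the GAL1- libraries. *Ier2* had the narrowest span of the 10, with 6.46, 6.44 and 6.38 in GAL1- cells, 6.44, 6.52 and 6.23 in PDGFRA+ cells, 6.52, 6.32 and 6.70 in PDGFRA- cells and 6.36, 6.13 and 6.03 in GAL1+ cells. For *Ier2* the log2 fold change in GAL1+ over GAL1- cells was -0.25, with a 95% interval from -0.55 to 0.04 (adjusted p = 0.126). With quantile normalization (-0.39, adjusted p = 0.028) or without TMM (-0.55, adjusted p = 0.00571) *Ier2* did pass the test and *Fosb* did not, and the called members were then 5 higher and 4 lower in place of 6 and 3. Leaving out TMM shifted the median of all genes in this comparison by -0.30 on the log2 scale, and under either scaling no member changed direction.

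**Figure D2:**
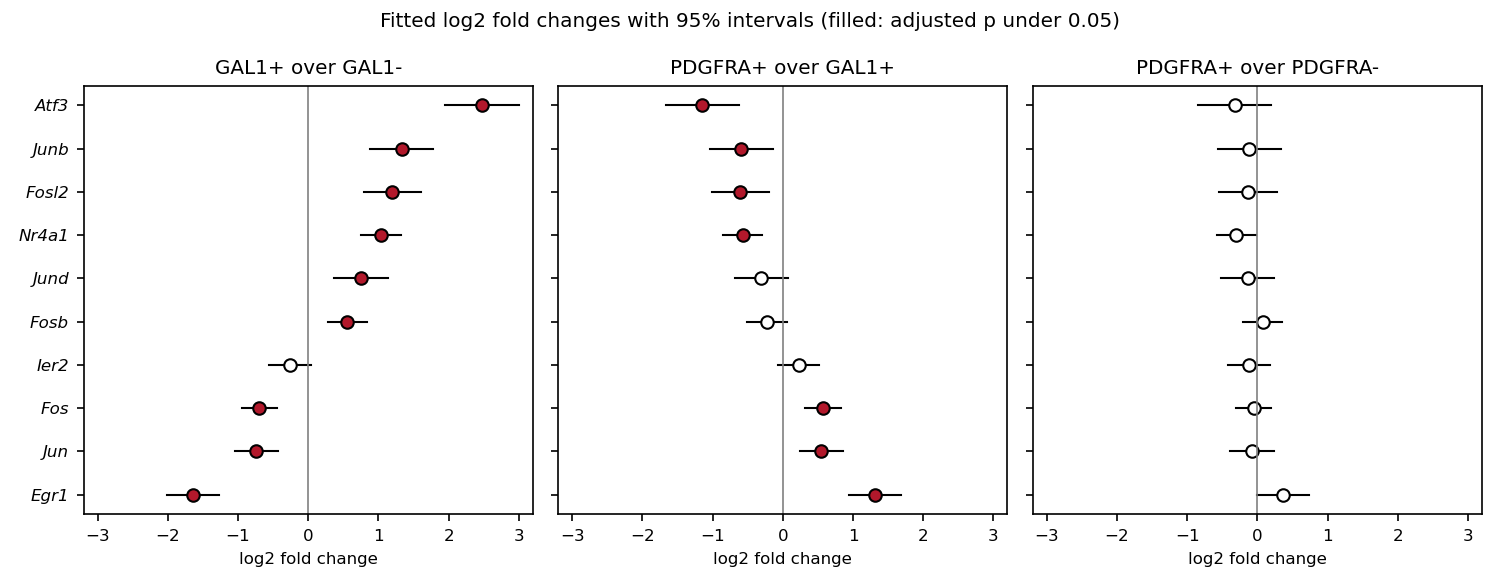
Log2 fold changes (x axis) of the 10 members (y axis, ordered by GAL1+ over GAL1-) in 3 comparisons, with 95% intervals from the limma fit, filled where the adjusted p was under 0.05. Members run from -1.65 to 2.47 in GAL1+ over GAL1- cells and from -0.33 to 0.36 in PDGFRA+ over PDGFRA- cells.

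The difference in log2 CPM between a pair of members in 1 library does not depend on a scaling by 1 factor per library, such as TMM. The pairs were chosen after the values were seen, so they are described without a test. Log2 CPM is not corrected for transcript length, so these differences compare populations and do not rank the genes of a pair. *Fos* minus *Fosl2* was 2.33 ± 0.18 (SD, n = 3) on the log2 scale in GAL1- cells and 0.43 ± 0.30 in GAL1+ cells. *Jun* minus *Junb* was 2.11 ± 0.11 in GAL1- cells and 0.04 ± 0.29 in GAL1+ cells. *Egr1* minus *Atf3* was 4.05 ± 0.78 in GAL1- cells and -0.07 ± 0.90 in GAL1+ cells. In each pair the lowest GAL1- library was above the highest GAL1+ library, and PDGFRA+ and PDGFRA- cells had means in between. This outcome was set by the choice of pairs. Both members of a pair already had separate GAL1 ranges in opposite directions and PDGFRA+ and PDGFRA- means in between.

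**Figure D3:**
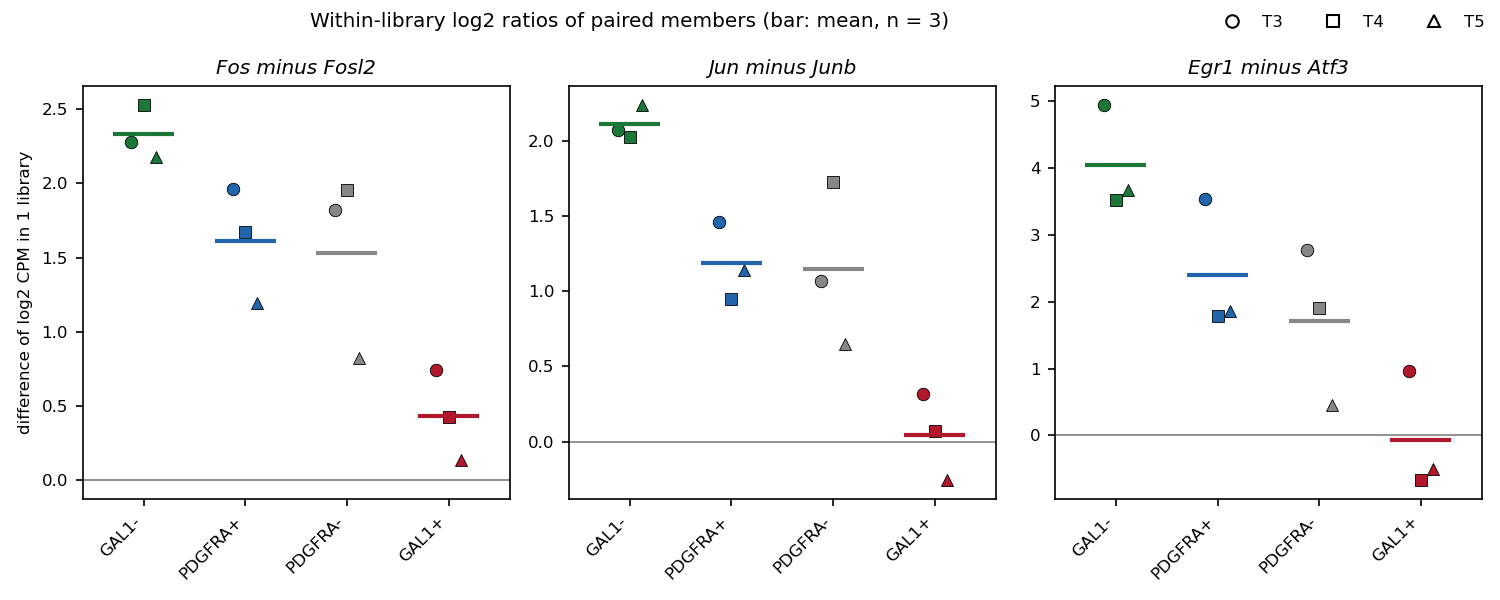
Difference in log2 CPM between paired members within a library (y axis, each panel with its own scale) in the 4 populations (x axis). Points are libraries, shaped by tumor, and bars show means of 3 libraries. The grey line marks equal log2 CPM, which is not an equal level per transcript length. The means fall from 2.33 to 0.43, from 2.11 to 0.04 and from 4.05 to -0.07 between GAL1- and GAL1+ cells.

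Genes can be compared with each other only per length of transcript. On the scale of log2 CPM per kb of exon, the mean level in GAL1- cells was highest for *Fos* (8.67), then *Jun* (8.19) and *Egr1* (7.50), and lowest for *Atf3* (4.51). On the same scale in GAL1+ cells the highest member was *Junb* (8.22), followed by *Fos* (7.98), *Jund* (7.79) and *Jun* (7.45), with *Egr1* at 5.85 and *Ier2* lowest at 5.57. The length used is the union of exons in an annotation of another build, so close neighbors in this order should not be read as different.

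The PDGFRA sort gave no such split. Of the 10 members 0 were called in PDGFRA+ over PDGFRA- cells with limma, where 0% of all genes were called, and 1 member and 2137 genes had an unadjusted p under 0.05. That member was *Nr4a1*, lower in PDGFRA+ cells in 3 of 3 tumors with a log2 fold change of -0.30 (95% interval -0.58 to -0.01, adjusted p = 0.409, and 0.348 to 0.977 over the alternatives). *Egr1* was higher in PDGFRA+ cells in 3 of 3 tumors (0.36, 95% interval -0.01 to 0.73, adjusted p = 0.436), and the other members did not keep 1 direction over the tumors. All 10 ranges overlapped, and the share of all genes with overlapping ranges was not counted. The intervals were widest for *Atf3*, from -0.85 to 0.20, and *Junb*, from -0.56 to 0.34, and narrowest for *Fos*, from -0.31 to 0.20, so that differences within these bounds are not excluded by the test.

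PDGFRA+ cells were set against GAL1+ cells because the study compared these sorted populations. Of the 10 members 7 were called, where 38.0% of all genes were called. *Egr1* (log2 fold change 1.32, standard error 0.17, adjusted p = 0.00141), *Fos* (0.57, 0.11 and 0.00513) and *Jun* (0.55, 0.14 and 0.0131) were higher in PDGFRA+ cells in 3 of 3 tumors. *Atf3* (-1.14, standard error 0.23, adjusted p = 0.00591), *Fosl2* (-0.61, 0.18 and 0.0276), *Junb* (-0.59, 0.20 and 0.0433) and *Nr4a1* (-0.57, 0.13 and 0.00794) were lower in 3 of 3 tumors. Among these, ranges overlapped for *Fos* and *Nr4a1* and were apart for *Egr1*, *Jun*, *Atf3*, *Fosl2* and *Junb*. How often ranges were apart over all genes was not counted. *Fosb* (-0.23, adjusted p = 0.181), *Jund* (-0.30, 0.182) and *Ier2* (0.22, 0.205) did not pass the test. Without T3 only *Egr1* remained of the 7, where 11.6% of all genes were then called, and without the tumor block 3 members and 17.3% of all genes were called. Scaling moved 2 of the lower calls: *Fosl2* (-0.34, adjusted p = 0.139) and *Junb* (-0.30, 0.197) did not pass with quantile normalization, nor without TMM (-0.40, 0.0924 and -0.39, 0.141). The called members were then 3 higher and 2 lower with quantile normalization, and 4 higher, with *Ier2* (0.43, 0.0312), and 2 lower without TMM, in place of 3 and 4.

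The remaining comparisons place the PDGFRA- cells and share their libraries with those above. In PDGFRA- over GAL1+ cells 4 members were called, where 20.1% of all genes were called. They were *Egr1* (0.96, adjusted p = 0.0089), *Fos* (0.63, 0.00999) and *Jun* (0.63, 0.017), which were higher, and *Atf3* (-0.82, 0.0378), which was lower. The single lower call, *Atf3*, was kept under 5 of 12 alternatives. It was lost under quantile normalization, in a fit to only the populations compared, and without TMM, the tumor block, the trend, T3 or T4. The count of members was 0 without T4, where 0 of all 18180 genes were called as well, and 1 without T3, where 4.33% were called. It was 7 without T5, where 20.1% were called, and 7 without the PDGFRA- library of T5 alone, where 32.1% were called. In PDGFRA- over GAL1- cells 6 members were called, where 23.1% of all genes were called. *Atf3* (1.65, adjusted p = 0.00147), *Junb* (0.85, 0.0166), *Nr4a1* (0.76, 0.00295), *Fosl2* (0.73, 0.021) and *Jund* (0.59, 0.0345) were higher and *Egr1* (-0.69, 0.0177) was lower in PDGFRA- cells. The count was 2 without T5 (5.06% of all genes called), 3 without T3 (9.34%), 4 without T4 (18.1%) and 4 without the PDGFRA- library of T5 (11.1%). It was 4 higher and 2 lower with quantile normalization, with *Jun* as the second lower gene, and 3 higher and 1 lower without TMM. In PDGFRA+ over GAL1- cells 1 member was called, *Atf3* (1.33, standard error 0.23, adjusted p = 0.00661), where 8.27% of all genes were called. *Junb* (0.74, adjusted p = 0.0548), *Nr4a1* (0.46, 0.0534) and *Fosl2* (0.59, 0.089) were next, 5 members and 10.4% of all genes were called without the PDGFRA- library of T5, and without T3 0 members and 0 of all genes were.

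Over all 4 populations together, the F test called 9 members, all but *Ier2* (adjusted p = 0.205), where 46.4% of all genes were called. Mean levels of *Fosl2*, *Junb*, *Jund*, *Atf3* and *Nr4a1* ran from GAL1+ down through PDGFRA- and PDGFRA+ to GAL1- cells. For *Fos* and *Jun* the order was GAL1-, PDGFRA-, PDGFRA+ and GAL1+, for *Egr1* it was GAL1-, PDGFRA+, PDGFRA- and GAL1+, and for *Fosb* it was GAL1+, PDGFRA+, PDGFRA- and GAL1-. In every one of these orders PDGFRA+ and PDGFRA- are neighbors that did not differ by the test. The neighbors PDGFRA- and GAL1+ also did not differ for *Fosl2* (adjusted p = 0.0926), *Junb* (0.117), *Jund* (0.51) and *Nr4a1* (0.144). At the other end, the neighbors PDGFRA+ and GAL1- did not differ for *Egr1* (0.367), *Fosl2*, *Junb*, *Jund* and *Nr4a1*, nor did PDGFRA- and GAL1- for *Fos* (0.676), *Jun* (0.568) and *Fosb* (0.163). *Ier2* ran from PDGFRA- through GAL1- and PDGFRA+ to GAL1+ cells with no pair that differed by the test.

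Several members differed between the tumors in the same way across populations. *Fosb* was highest in T4 and lowest in T5 in 4 of 4 populations, with means over the populations of 9.07 in T4, 8.71 in T3 and 8.16 in T5. *Egr1* was highest in T3 and lowest in T5 in 4 of 4 populations, and its means were 9.38, 8.98 and 8.64 in T3, T4 and T5. *Fos* was lowest in T5 (9.15, against 9.68 in T3 and 9.75 in T4) and *Atf3* was lowest in T3 (6.32, against 7.35 in T4 and 7.27 in T5), each in 4 of 4 populations. *Nr4a1* was highest in T4 in 4 of 4 populations. With 1 tumor behind each of these means the differences between tumors were not tested. The 4 populations of a tumor can share cells, so they are not separate observations. Any differences in handling between tumors cannot be told apart from the tumors. How many of all genes kept such an order was not counted.

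The level of leukocyte RNA also differed between the populations. All 12 pan-leukocyte genes rose in GAL1+ relative to GAL1- cells by the same test, with a median log2 fold change of 4.44, and all 12 were called lower in PDGFRA+ than in GAL1+ cells, with a median of -1.57. Over the 12 libraries, which share 3 tumors, the Pearson correlation with the mean log2 CPM of these genes was 0.96 for *Junb*, 0.94 for *Atf3*, 0.93 for *Fosl2*, 0.77 for *Jund* and 0.71 for *Nr4a1*. It was -0.82 for *Egr1*, -0.71 for *Jun* and -0.61 for *Fos*, and 0.25 for *Fosb* and -0.28 for *Ier2*. The leukocyte mean differed between the populations, so these correlations are not separate from the population differences. Over all genes the first principal component held 58.5% of the variance, and how many genes had correlations of this size was not counted. The PDGFRA- library of T5 had a pan-leukocyte mean of 7.87, against 6.49 in T3 and 5.63 in T4, and it was the highest of the PDGFRA- libraries for *Junb*, *Fosl2*, *Atf3*, *Jund* and *Ier2* and the lowest for *Egr1*, *Fos* and *Fosb*, each of which was also lowest in T5 in the other populations. *Nr4a1* was highest in T4 (8.27, against 7.89 in T5) and *Jun* was lowest in T3 (9.57, against 9.71 in T5) among the PDGFRA- libraries. Markers of other cells also differed. In GAL1+ over GAL1- cells, where 28.9% of all genes were called higher, 8 of 8 microglia, 7 of 7 macrophage, 7 of 8 endothelial and 5 of 5 pericyte genes were. Of the measured neutrophil genes 1 of 4 was called higher, and of the T and NK cell genes 1 of 8. Summed oligodendrocyte lineage genes were at 3014 to 3877 CPM in GAL1- cells and 355 to 1168 in GAL1+ cells. The part of these cells in the members' differences was not tested.

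**Figure D4:**
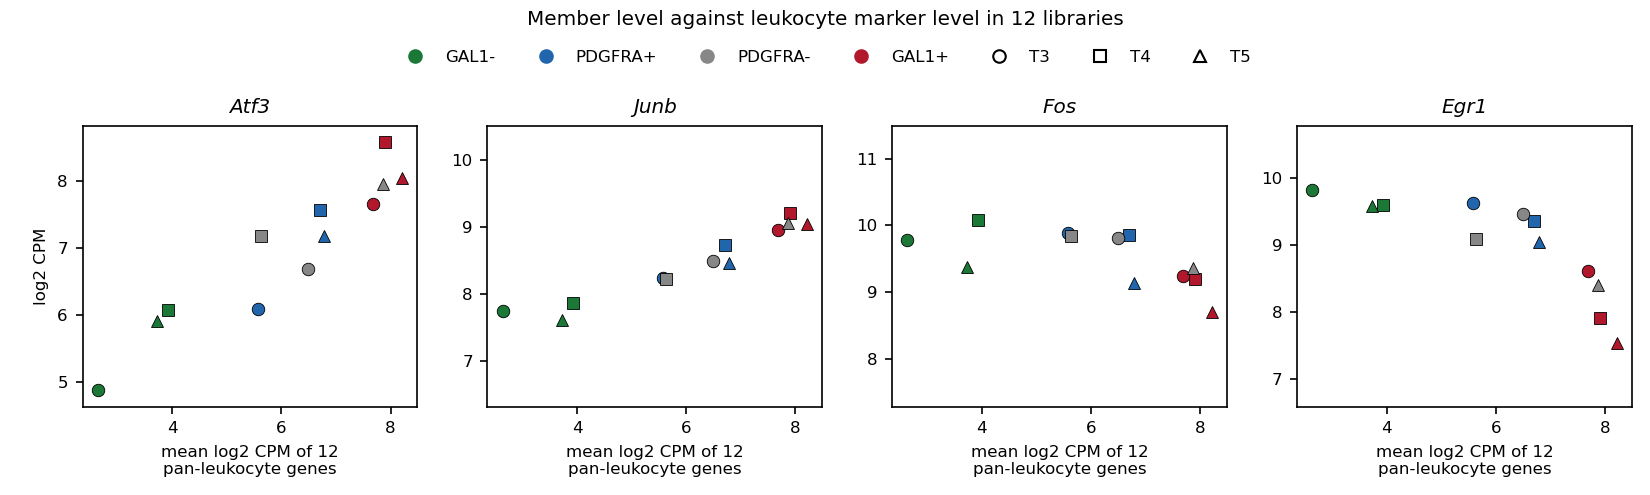
Log2 CPM of *Atf3*, *Junb*, *Fos* and *Egr1* (y axis, 4.2 log2 units tall in every panel) against the mean log2 CPM of 12 pan-leukocyte genes (x axis) in 12 libraries, colored by population and shaped by tumor. *Junb* and *Atf3* are higher and *Egr1* and *Fos* lower in libraries with more leukocyte RNA, with Pearson correlations of 0.96, 0.94, -0.82 and -0.61.

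Other genes of the response were read from lists chosen with earlier results known. The counts stand beside 58.2% of all genes called in GAL1+ over GAL1- cells, 28.9% higher and 29.3% lower. In PDGFRA+ over GAL1+ cells 38.0% of all genes were called, 20.9% higher and 17.0% lower. Among 24 further immediate early genes, 13 rose and 8 fell in GAL1+ relative to GAL1- cells by the same test, with a median log2 fold change of 0.84, against -0.03 over all genes. The highest were the NR4A receptor *Nr4a3* (2.70), the Krüppel-like factor *Klf2* (2.57) and the antiproliferative gene *Btg2* (2.29), and the lowest were the neuronal activity factor *Npas4* (-2.63), *Ier5l* (-1.87) and the synaptic gene *Arc* (-1.71). In PDGFRA+ over GAL1+ cells 8 were called higher, led by *Npas4* (2.22), *Ier5l* (1.67) and the EGR paralog *Egr4* (1.58), and 11 lower, with *Btg2* (-1.23), *Nr4a2* (-1.23) and *Nr4a3* (-1.17) lowest. This list was split in direction as the members were.

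Genes that switch the response off moved 1 way. Of 12 feedback inhibitors, 10 were called higher and 0 lower in GAL1+ than in GAL1- cells (median 1.496), where 58.2% of all genes were called. The highest inhibitors were the MAP kinase phosphatases *Dusp1* (2.32) and *Dusp2* (2.11) and the mRNA decay factor *Zfp36l1* (2.12). Their smallest called differences were *Nab1* (0.67), *Socs3* (0.64) and *Tob1* (0.37). *Dusp6* (0.06) and the EGR corepressor *Nab2* (0.20) did not pass the test. In PDGFRA+ over GAL1+ cells, where 38.0% of all genes were called, 7 of the 12 were called lower and 0 higher. The 7 ran from *Dusp1* (-1.14), *Zfp36l1* (-1.13) and *Zfp36* (-1.01) to *Tob2* (-0.82), *Nfkbia* (-0.70) and *Nab1* (-0.49). Heat shock genes, which respond to stress of many kinds, had 10 of 12 called higher and 0 lower in GAL1+ than in GAL1- cells (median 1.01, beside 58.2% of all genes called). The HSP70 genes *Hspa1b* (1.63) and *Hspa1a* (1.62), near-identical copies whose reads counting can split, and *Dnajb4* (1.33) were highest, and *Dnaja1* (0.53), *Hsph1* (0.39) and *Hsp90ab1* (0.35) had the smallest called differences. In PDGFRA+ over GAL1+ cells 7 of 12 heat shock genes were called lower, beside 38.0% of all genes called. They ran from *Hspa1b* (-1.12), *Hspa1a* (-1.12) and *Dnajb4* (-0.82) to *Hspa8* (-0.67), *Dnaja1* (-0.56) and *Hsph1* (-0.46).

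Of 11 further AP-1 partners, 7 were called higher and 0 lower in GAL1+ than in GAL1- cells (median 1.74), where 58.2% of all genes were called. *Batf* (4.02) and *Maf* (2.42) were among the highest, and both are genes that leukocytes are known to express, while *Jdp2* (1.86), *Mafk* (1.74) and the stress factor *Atf4* (0.80) had the smallest called differences. In PDGFRA+ over GAL1+ cells, where 38.0% of all genes were called, 5 partners were called lower. Among them were *Maf* (-1.27), *Jdp2* (-0.93), *Mafk* (-0.87) and *Atf4* (-0.58). Of 20 upstream regulators, 11 were called higher and 2 lower in GAL1+ than in GAL1- cells (median 0.47). The number called was near the share of 58.2% over all genes. Among the 20, the kinases *Rps6ka1* (3.80) and *Mapkapk2* (2.45) and the CREB relative *Crem* (1.91) were highest, and the smallest called increase was *Crtc2* (0.39). The 2 called lower were *Elk1* (-0.96) and *Srf* (-0.66), which together bind the serum response element. In PDGFRA+ over GAL1+ cells *Elk1* (0.64) and *Srf* (0.59) were higher and 8 were lower, beside 38.0% of all genes called. The lower regulators ran from *Rps6ka1* (-1.36), *Mapkapk2* (-1.13) and *Crem* (-1.07) to *Rela* (-0.54). In PDGFRA+ over PDGFRA- cells 0 genes of any list were called.

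**Figure D5:**
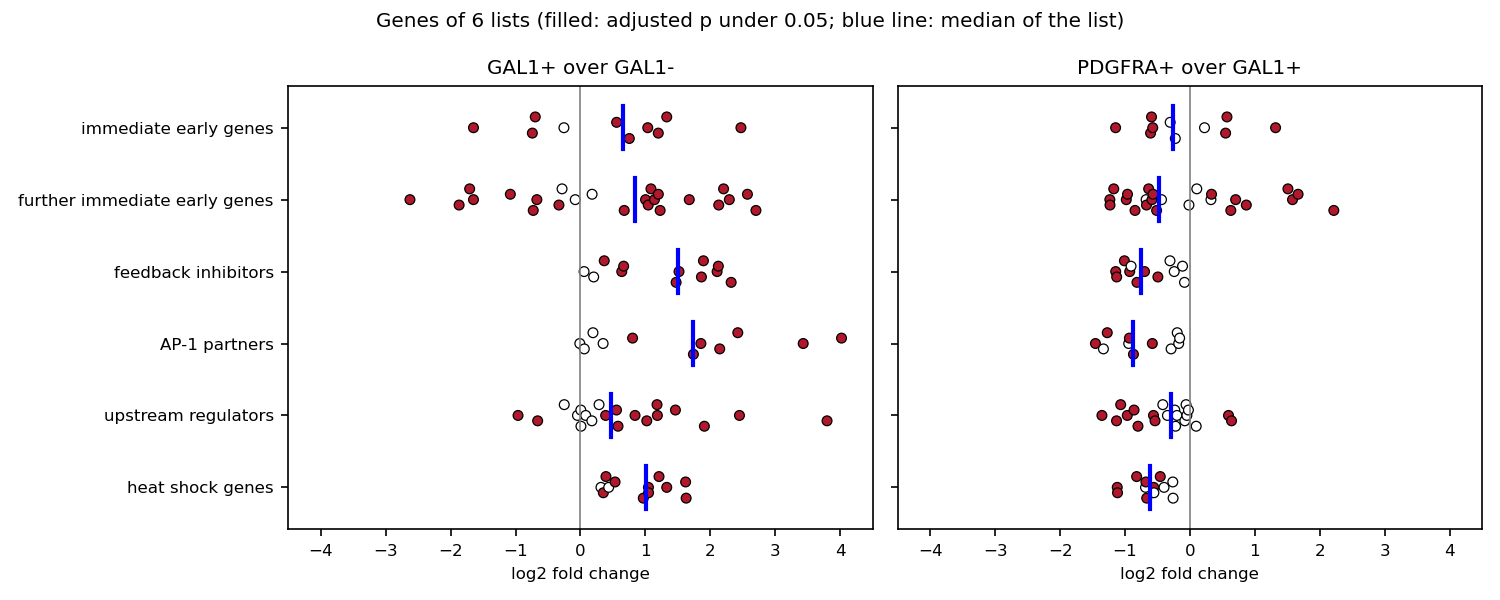
Log2 fold changes (x axis) of the genes of 6 lists (y axis) in GAL1+ over GAL1- and PDGFRA+ over GAL1+ cells, 1 point per gene, filled where the adjusted p was under 0.05, with the median of each list in blue. Both lists of immediate early genes spread to both sides of 0, and in GAL1+ over GAL1- cells the called feedback inhibitors, AP-1 partners and heat shock genes all lie above 0.

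The genes whose profile over the 12 libraries was most like the mean of the 10 members, each centred on its own mean, were *Rnpepl1* (Pearson r = 0.94), *Sh2b3* (0.92), *Epn1* (0.90), *Dock6* (0.90) and *Susd2* (0.90). Since the members moved in opposite directions, this mean is a poor summary of any 1 of them. Searched one by one, which was added after the values were seen, the closest gene was *Sirpa* for *Junb* (0.99), *Fmnl3* for *Atf3* (0.99) and *Nova1* for *Egr1* (0.996). These are descriptions over libraries that share tumors and populations.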

How the data were processed

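Bulk RNA-seq libraries of 4 populations of EGFR+ cells, sorted from each of 3 GBMs, were analysed. The study calls the sorted cells CD45-. Its methods for the sort list EGFR staining, combined with PDGFR or with Galectin-1 staining, and no CD45 antibody. Libraries were made from total RNA with a stranded low-input kit. The authors ran fastp on the reads, used STAR for alignment to mm39, counted exons with featureCounts with multi-mapping reads as fractions, kept genes with a CPM over 1 in at least 3 samples, scaled by TMM and applied voom. The deposited values are log2 CPM, with voom's offset of 0.5. The number of columns of samples outside the series was 0.

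To recover reads, each library's lowest value was taken as 0 reads, which put 41.3% to 59.2% of its values within 0.01 of a whole number. A floor of 3 reads, which covers counting error only, lay at a log2 CPM of -2.99 to -1.44. A model with population and tumor was fitted to all genes and 12 libraries with limma (version 3.58.1, R 4.3.3). The two-sided moderated test used a mean-variance trend. Genes were called at a Benjamini-Hochberg adjusted p under 0.05 over 18180 genes. The tumor block follows the tumor numbers in the labels. As a check, pairs of libraries from the same tumor had correlations of their deviations from population means of 0.14 to 0.66 (18 pairs, median 0.51).

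Named genes are the members and the 5 genes most like the mean of the members. Up to 3 highest and 3 lowest called genes of each list in 3 comparisons were also named. The mouse genes *Pdgfra*, *Lgals1* and *Ptprc* were named as checks of the sort, and mouse *Egfr* was given beside them. *Dusp6* and *Nab2* and the closest gene for single members were named after their values were seen. Members and lists were chosen with earlier results of these data known. Lengths are exon unions of GENCODE M21 and promoters are from RefSeq, both on GRCm38, and no coordinates were carried to mm39. Alternatives changed the block, the libraries in the fit, the trend, weights, pseudocount, filter and scaling, and left out each tumor or the PDGFRA- library of T5. Some genes of the study and of the lists are not reported here. The single-cell data of the study were not used here. Figures were drawn with matplotlib 3.10.9.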

Additional observations from a re-analysis of the deposited data

How the results depend on the processing

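With 3 tumors per population, the counts of called members were stable only in GAL1+ over GAL1- and PDGFRA+ over PDGFRA- cells. Under every alternative they were 7 to 9 and 0, with 44.4% to 62.2% and 0% of all genes called. Without the replicate block, which the pairing by tumor supplies, fewer members and fewer of all genes were called. In PDGFRA+ over GAL1+ cells the members fell from 7 to 3 and all genes from 38.0% to 17.3%. In PDGFRA- over GAL1+ cells they fell from 4 to 0 and from 20.1% to 3.99%. In PDGFRA+ over GAL1- cells they fell from 1 to 0 and from 8.27% to 3.37%. In PDGFRA- over GAL1- cells they fell from 6 to 2 and from 23.1% to 7.94%. The F test went from 9 members to 5, and its share over all genes was not counted under the alternatives. A fit to only the populations compared gave 1 member in PDGFRA- over GAL1+ cells, where 10.4% of all genes were called. It gave 6 in PDGFRA+ over GAL1- (18.6%) and 2 in PDGFRA- over GAL1- cells (7.30%). Voom weights gave 3 members (8.34% of all genes called) and quantile normalization 2 (6.24%) in PDGFRA+ over GAL1- cells. Leaving out a tumor or the PDGFRA- library of T5 gave 1 to 7 members in PDGFRA+ over GAL1+ cells, where 11.6% to 42.2% of all genes were called. It gave 0 to 7 in PDGFRA- over GAL1+ (0% to 32.1%) and 0 to 5 in PDGFRA+ over GAL1- cells (0% to 10.4%). There were 2 to 4 in PDGFRA- over GAL1- cells (5.06% to 18.1%) and 5 to 9 in the F test. The cause of these changes was not tested, beyond the fewer samples in some fits.

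Direction changed only for members that had not passed the test. In PDGFRA+ over PDGFRA- cells, log2 fold changes became 0.125 for *Fos* and 0.0883 for *Jun* with quantile normalization, and 0.0753 for *Fos*, 0.0536 for *Jun*, 0.0172 for *Junb* and 0.0149 for *Ier2* without TMM. Leaving out libraries there gave -0.117 to 0.0356 for *Fos*, -0.341 to 0.124 for *Fosl2*, -0.186 to 0.0184 for *Jun*, -0.425 to 0.15 for *Junb*, -0.224 to 0.0693 for *Jund* and -0.273 to 0.0593 for *Ier2*. Quantile normalization gave 0.0704 for *Fosb* in PDGFRA+ over GAL1+, 0.0168 for *Jund* in PDGFRA- over GAL1+ and -0.0215 for *Ier2* in PDGFRA- over GAL1- cells, where *Ier2* was -0.13 without TMM. Leaving out libraries gave -0.472 to 0.00991 for *Jund* in PDGFRA- over GAL1+, -0.086 to 0.0315 for *Ier2* in PDGFRA+ over GAL1-, and -0.119 to 0.00734 for *Fos* and -0.0645 to 0.187 for *Ier2* in PDGFRA- over GAL1- cells. The median of all genes moved under no TMM by 0.21 in PDGFRA+ over GAL1+, 0.13 in PDGFRA+ over PDGFRA- and -0.22 in PDGFRA- over GAL1- cells, and under quantile normalization by -0.13 in PDGFRA+ over GAL1- and -0.14 in PDGFRA- over GAL1- cells. *Jund* was called in PDGFRA- over GAL1- cells under 3 of 12 alternatives.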
